A study of Bos taurus with 22 samples.

Results

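The miR-15 and miR-16 family was followed in the plasma of 11 heifers on Day 0 and on Day 60 of pregnancy. The 5 members, bta-miR-15a, bta-miR-15b, bta-miR-16a, bta-miR-16b and bta-miR-195 (the prefix stands for Bos taurus), were taken by name from the 844 mature miRNAs of the deposited count table. All 5 passed the filter on low levels, and they are among the 195 miRNAs tested. The animals were Holstein-Friesian heifers never inseminated before, whose oestrus was synchronised and which were then bred by artificial insemination. Jugular plasma was drawn into EDTA tubes on the day of insemination (Day 0, the non-pregnant baseline) and on Day 60, when ultrasound showed that all were pregnant. Small RNA was sequenced from each sample, which gave 22 libraries in 2 groups of 11. Each heifer is her own control and no heifer stayed non-pregnant, so pregnancy and the 60 days that passed cannot be told apart.

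The members of this family share a seed, the short stretch near the 5′ end of a miRNA that pairs with its target mRNAs, and so are expected to reach overlapping targets. In human cells miR-15a and miR-16 repress the anti-apoptotic gene BCL2 and several cyclins that drive the cell cycle, and their locus is often deleted in chronic lymphocytic leukaemia. Mature miR-16 is abundant in red blood cells, and lysis of these cells raises its level in plasma.

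The family is encoded at 3 places in the bosTau4 assembly, each holding a pair of miRNAs, all on the minus strand by the deposited positions. miR-15a (18887792 to 18887812) and miR-16a (18887651 to 18887672) lie on chromosome 12 with 119 bases between the mature forms. miR-15b (108876601 to 108876622) and miR-16b (108876457 to 108876477) lie on chromosome 1 with 123 bases between them. By the RefSeq gene table of a later assembly, ARS-UCD2.0, this pair lies within SMC4, which encodes a subunit of condensin, the complex that compacts chromosomes. miR-195 (27179363 to 27179384) lies on chromosome 19, and 303 bases separate it from miR-497, which has the same seed and is not one of the 5 members. The mature forms are 21 or 22 bases long. miR-16a and miR-16b come from different chromosomes but differ only near the 3′ end. Since the authors allowed a mismatch when they assigned reads, the split of reads between these 2 is uncertain.

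Total miRNA reads ran from 1912290 to 6839128 per library on Day 0 and from 304117 to 12775451 on Day 60. The shallowest was that of heifer 17 on Day 60, at 304117 reads, which also held the highest level of all 5 members per 1000000 miRNA reads. Its values are therefore named, and the comparison of each member between the days is also given without this heifer. Levels are reads per 1000000 miRNA reads of the library (RPMM). The days were compared on the raw read counts by the quasi-likelihood test of edgeR, after TMM scaling, with each heifer as a block. FDR stands for its Benjamini-Hochberg adjusted p over the 195 tested miRNAs, and 0.05 was the threshold. Log2 fold-changes above 0 stand for more of a miRNA on Day 60. On TMM-normalised reads the highest level of miR-15b was that of heifer 14 on Day 60, and of miR-195 that of heifer 31 on Day 60.

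Of the 5 members, miR-16b and miR-195 were higher on Day 60 and none was lower. Over all tested miRNAs 17.4% were higher, 17.9% were lower and 35.4% passed in either direction, and a count of 2 among 5 members does not set the family apart from this background. All 5 fitted log2 fold-changes were above 0, from 0.37 to 0.79, with a median of 0.64 against -0.06 over all tested miRNAs. By rank, the highest 90 of the 195 tested miRNAs were above 0. The members other than miR-195 varied together over the libraries, so the 5 do not count as separate observations. The calls were close to the threshold. With library totals in place of TMM, the median over all tested miRNAs moved to -0.25, the members' log2 fold-changes stayed above 0 and none of the 5 passed. Without heifer 17 none passed either.

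bta-miR-16b was the most abundant member, at rank 23 of the 844 miRNAs by mean RPMM. On Day 0 it ran from 6193 RPMM in heifer 17 to 17224 in heifer 12, with a median of 9566. On Day 60 it ran from 8227 in heifer 29 to 36522 in heifer 17, with a median of 13034. Its next highest Day 60 level was 25329 RPMM in heifer 14, and these were the 2 Day 60 libraries above every Day 0 library. The remaining 9 lay within the Day 0 range, so the days overlapped. Day 0 averaged 10662 ± 3673 and Day 60 15945 ± 8164 RPMM (SD, n = 11). In edgeR miR-16b was higher on Day 60 by a log2 fold-change of 0.68 with an SE of 0.26 (edgeR FDR 0.0487), in 9 of 11 heifers. Leaving out any one of heifers 10, 11, 14, 17, 26, 28, 29 or 31 raised its edgeR FDR above the threshold, to at most 0.131, and without heifer 17 its log2 fold-change was 0.49 (edgeR FDR 0.0973).

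bta-miR-16a came after miR-15a in level by its median on both days and, relative to its mean, had the widest spread of the 5 on Day 60. On Day 0 it ran from 1288 RPMM in heifer 17 to 3476.5 in heifer 32, with a median of 1758. On Day 60 the lowest was 1625 in heifer 29, the median 2571 and the highest 20588 in heifer 17. The next highest Day 60 level, in heifer 14, was 4140 RPMM, so heifer 17 stood alone. This value rests on 6261 reads, for which a 95% Wilson interval gives 20089 to 21098 RPMM and covers counting error only. In heifer 17 the Day 60 level was 15.99 times that of Day 0, while the median ratio over the 11 heifers was 1.32. Day 0 averaged 1965 ± 701 and Day 60 4204 ± 5477 RPMM (SD, n = 11). The log2 fold-change of miR-16a, 0.79 (SE 0.32, higher in 10 of 11 heifers on TMM-normalised reads), was the largest among the members and did not pass (edgeR FDR 0.0669). Without heifer 17 it was 0.54 (edgeR FDR 0.0632). With no replicate block for heifer it was 1.23 and passed (edgeR FDR 0.0118), and it also passed with the block when heifer 32 was left out (log2 fold-change 0.92, edgeR FDR 0.0286).

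bta-miR-15a, the partner of miR-16a on chromosome 12, was second in level by its median on both days and had the smallest log2 fold-change of the 5. By the mean it was above miR-16a on Day 0, at 3357.5 ± 802.7 RPMM (SD, n = 11) against 1965, and below it on Day 60, at 3865.4 ± 1211.4 against 4204, a mean that includes the 20588 of heifer 17. Its Day 0 levels ran from 2364 RPMM in heifer 14 to 5140 in heifer 12, with a median of 3404. On Day 60 they ran from 2432 in heifer 26 to 6853 in heifer 17, with a median of 3595. A single Day 60 library, that of heifer 17, lay above all those of Day 0. Its log2 fold-change of 0.37, with an SE of 0.19, did not pass (edgeR FDR 0.143), and 6 of 11 heifers were higher on Day 60 by RPMM and 7 by TMM-normalised reads. Without heifer 17 it was 0.27 (edgeR FDR 0.309). In heifer 14 miR-15a went from the lowest Day 0 level to the second highest of Day 60, 5079 RPMM.

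bta-miR-15b, the partner of miR-16b on chromosome 1, was far less abundant. On Day 0 it ran from 176 RPMM in heifer 14 to 331 in heifer 12, with a median of 211. On Day 60 it ran from 167 in heifer 26 to 493 in heifer 17, with a median of 273, and 3 libraries were above every Day 0 library. Its log2 fold-change of 0.45, with an SE of 0.20, did not pass (edgeR FDR 0.0883), and 6 of 11 heifers were higher on Day 60 by RPMM and 8 by TMM-normalised reads. Without heifer 17 it was 0.345 (edgeR FDR 0.207). It passed with no replicate block (log2 fold-change 0.49, edgeR FDR 0.0304) and with the block when heifer 32 was left out (log2 fold-change 0.55, edgeR FDR 0.0286).

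bta-miR-195 was the least abundant member, at rank 164 of 844. In mouse heart this miRNA is known to restrain division of muscle cells after birth. Levels on Day 0 ran from 33.0 RPMM in heifer 29 to 106.2 in heifer 14, with a median of 56.7. Levels on Day 60 ran from 35.4 in heifer 29 to 158 in heifer 17, with a median of 75.9. Heifer 31 was close behind heifer 17 on Day 60, at 155 RPMM, and 4 Day 60 libraries were above the highest of Day 0. The level in heifer 17 on Day 60 rests on 48 reads, so its 95% Wilson interval is wide, from 119 to 209 RPMM. Day 0 averaged 60.1 ± 23.9 and Day 60 86.0 ± 42.5 RPMM (SD, n = 11). In edgeR miR-195 was higher on Day 60 by a log2 fold-change of 0.64 with an SE of 0.22 (edgeR FDR 0.0350), in 8 of 11 heifers. It did not pass when any one of heifers 11, 17, 24, 26, 28, 29 or 31 was left out, with an FDR of at most 0.0983, and without heifer 17 it was 0.56 (edgeR FDR 0.0855).

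**Figure D1:**
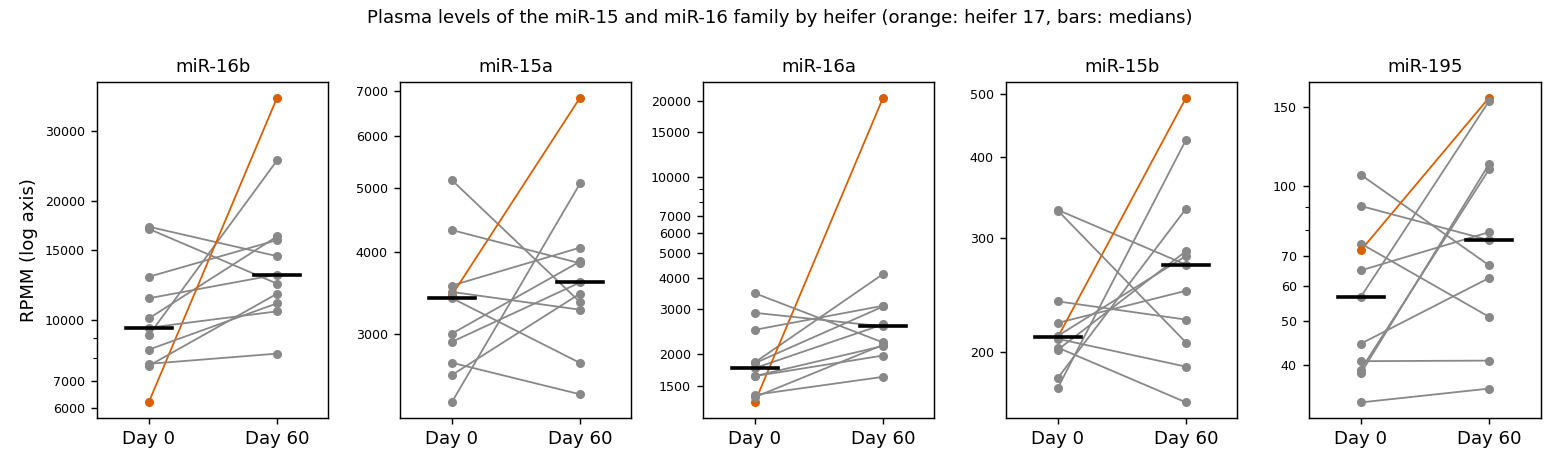
Plasma level of each member on Day 0 and Day 60, in RPMM on a log axis with its own scale per panel; each line is 1 of 11 heifers, heifer 17 in orange, and black bars are medians. Heifer 17 has the highest Day 60 level of every member, and for miR-16a it stands at 20588 RPMM against 4140 for the next library.

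The order of the levels was nearly the same in every library. miR-16b was above miR-15a in 22 of 22 libraries, miR-16a above miR-15b in 22 and miR-15b above miR-195 in 22. miR-15a was above miR-16a in 21, and the exception was the Day 60 library of heifer 17. Differences in level between these miRNAs also carry the ligation and amplification preferences of library preparation. Together the members took 1.63 ± 0.498% (SD, n = 11) of the miRNA reads on Day 0 and 2.44 ± 1.46% on Day 60. The lowest share on Day 60 was 1.28% in heifer 29, the median 2.01% and the highest 6.46% in heifer 17. Most of these reads were miR-16b, with 64.8 ± 4.28% (SD, n = 11) of the family on Day 0 and 66.6 ± 4.37% on Day 60.

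The heifers differed in how far the family moved. On TMM-normalised reads all 5 members were higher on Day 60 in heifers 11, 17, 24 and 31, and none was higher in heifer 32. In heifer 17 the changes ranged from a log2 of 1.22 for miR-15a to 4.22 for miR-16a. In heifer 14 miR-15a, miR-15b, miR-16a and miR-16b were higher by 1.56 to 1.93 on the log2 scale, while the change of miR-195 was -0.21. Heifer 10 showed the same split, with 0.54 to 1.12 for those 4 and -0.16 for miR-195. In heifers 12, 24, 28 and 31 miR-195 was instead the member that rose most, by 0.20, 1.41, 1.47 and 1.85. The largest change among the others was 0.02 in heifer 12, 0.29 in heifer 24, 0.70 in heifer 28 and 0.78 in heifer 31.

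Over the 22 libraries the 4 members other than miR-195 varied together. As a description, Pearson's r of log2 TMM-normalised reads ran from 0.80 for miR-15a and miR-16a to 0.93 for miR-16a and miR-16b. For miR-195 it ran from 0.33 with miR-15a to 0.56 with miR-16a. Libraries share their scaling, the same heifers enter on both days, and the split of reads between miR-16a and miR-16b is uncertain. Among the tested miRNAs outside the family, miR-93 was the most like miR-16b (r = 0.97), followed by miR-451 (0.92) and miR-106b (0.92). miR-106b was the most like miR-15a and miR-15b (0.90 and 0.94), and miR-93 the most like miR-16a (0.87). miR-93 and miR-106b come from one cluster, which also holds miR-25. The miRNAs most like miR-195 were others, let-7b (0.82), let-7c (0.80) and miR-146a (0.71).

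Whether members changed by different amounts was tested on the ratio of their reads within a library, which needs no scaling between libraries. None of the 10 pairs passed the exact sign-flip test over 2048 sign patterns after adjustment over the pairs. The smallest adjusted p was 0.137, for miR-15a against miR-16a, miR-15a against miR-16b and miR-15b against miR-16a (exact sign-flip test, two-sided p = 0.0400, 0.0342 and 0.0410). The log2 ratio of miR-15a to miR-16a changed by -0.50 ± 0.90 (SD, n = 11), with a 95% interval from -1.11 to 0.10, and was lower in 8 of 11 heifers. That of miR-15a to miR-16b changed by -0.34 ± 0.52 (95% interval from -0.69 to 0.01), again lower in 8 of 11. Without heifer 17 these means were -0.25 and -0.22. For miR-15b against miR-16b the change was -0.25 ± 0.51 (95% interval from -0.60 to 0.09; exact sign-flip test, two-sided p = 0.134, adjusted p = 0.335). The 4 ratios with miR-195 had wider intervals, the widest from -0.62 to 1.08 for miR-16a against miR-195. These intervals leave room for unequal changes.

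The ratio of miR-16a to miR-16b was the steadiest apart from a single library. There were 0.155 to 0.208 reads of miR-16a per read of miR-16b on Day 0, with a median of 0.182. On Day 60 the ratio was 0.163 at its lowest, 0.189 at the median and 0.564 in heifer 17, where the next highest was 0.205. The mean change in its log2 was 0.17 ± 0.46 (SD, n = 11) and 0.04 without heifer 17, with a two-sided p of 0.280 over all heifers in the exact sign-flip test and an adjusted p of 0.561. With the reads of both summed before the fit, which was decided with the values known, the log2 fold-change was 0.69 (edgeR FDR 0.0721).

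miR-497, the neighbour of miR-195 on chromosome 19, did not share its direction. It averaged 404 ± 91.7 RPMM on Day 0 and 298 ± 91.8 on Day 60 (SD, n = 11), with a log2 fold-change of -0.28 that did not pass (SE 0.19, edgeR FDR 0.236, lower in 8 of 11 heifers). The ratio of miR-195 to miR-497 ran from 0.0707 to 0.301 on Day 0 (median 0.128) and from 0.195 to 0.395 on Day 60 (median 0.271). It was higher on Day 60 in 9 of 11 heifers, and the exceptions were heifers 14 and 32, which had the highest Day 0 ratios. The mean change in its log2 was 0.92 ± 0.70 (SD, n = 11), with a two-sided p of 0.00391 in the exact sign-flip test. This pair was added to the 10 pairs of members with the directions of both miRNAs known, so its p, which is not adjusted, is a description and no independent test. With each heifer left out in turn the mean stayed between 0.83 and 1.06 and the exact p was at most 0.00781.

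**Figure D2:**
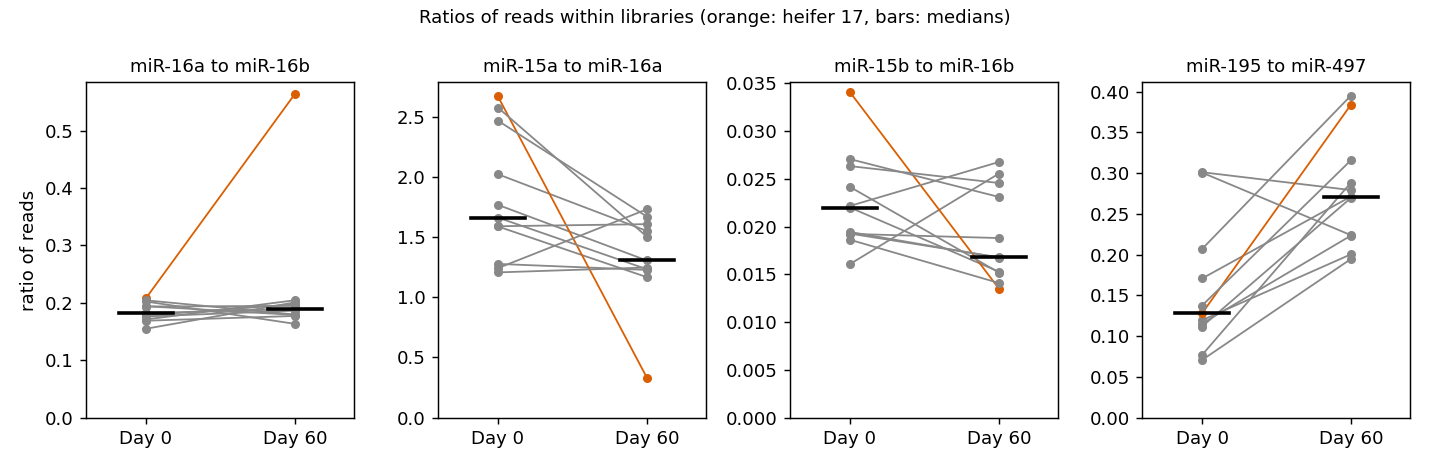
Ratios of reads within libraries for miR-16a to miR-16b and for the 3 pairs of genomic neighbours, on linear axes from 0; each line is 1 of 11 heifers, heifer 17 in orange, and black bars are medians. The ratio of miR-195 to miR-497 moves from a median of 0.128 to 0.271. That of miR-16a to miR-16b moves from a median of 0.182 to 0.189, and heifer 17 stands apart at 0.564 on Day 60.

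Other miRNAs with the same or a closely related seed were listed beside the family. Of 5 listed, miR-497 and miR-103 were tested, with 0 higher and miR-103 lower, and their median log2 fold-change was -0.53 against -0.06 over all tested miRNAs. miR-103, whose seed overlaps that of the family at a shift of a base, was lower in 10 of 11 heifers, by a log2 fold-change of -0.78 with an SE of 0.24 (edgeR FDR 0.0220). miR-424-5p, miR-503-5p and miR-107 were below the filter. miR-424-5p, which has the family seed, went from 15.5 ± 7.20 to 7.79 ± 3.28 RPMM (SD, n = 11) and was lower in 9 of 11 heifers by RPMM. miR-107, which shares the shifted seed of miR-103, averaged 13.3 ± 8.22 RPMM on Day 0 and 20.9 ± 11.5 on Day 60. It was higher in 7 of 11 heifers, the other way from miR-103, on 8 to 298 reads per library. Since a mismatch was allowed when reads were assigned, the split of reads between miR-107 and miR-103 is uncertain too. miR-503-5p had 0 to 6 reads per library. miR-424-3p, the other arm of the miR-424-5p precursor, went from 31.5 ± 9.83 to 11.3 ± 4.69 RPMM. The table lists no other arm of miR-15, miR-16, miR-195 or miR-497.

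**Figure D3:**
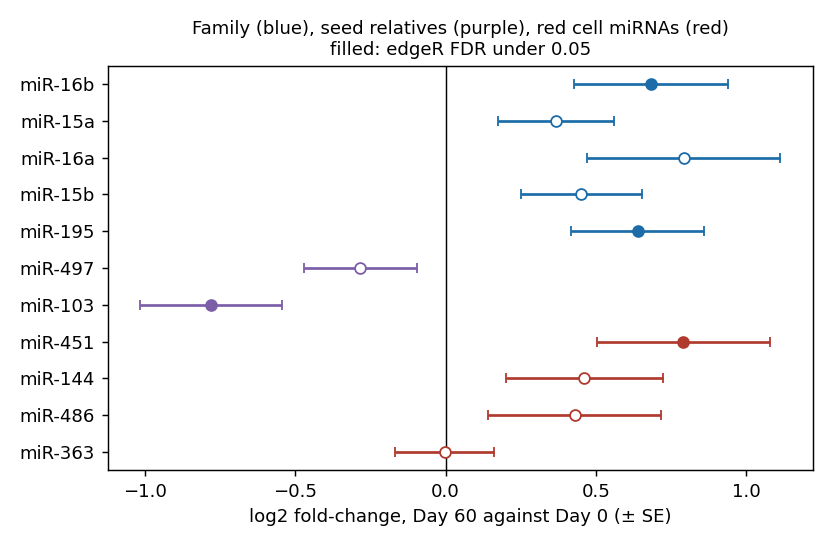
Log2 fold-change of Day 60 against Day 0 with its SE from edgeR, for the 5 members (blue), 2 seed relatives (purple) and 4 red cell miRNAs (red), n = 11 heifers; filled points have an FDR under 0.05. All 5 members lie above 0, from 0.37 to 0.79, while miR-497 and miR-103 lie below it.

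Red cell miRNAs were compared with the family because miR-16 is abundant in these cells. The list was miR-451, miR-144, miR-486 and miR-363. Of the 4, miR-451 was higher on Day 60 (log2 fold-change 0.79, SE 0.29, edgeR FDR 0.0425), 3 had a log2 fold-change above 0, and none was at 0 reads. Their summed share of the miRNA reads ran from 6.70 to 32.7% on Day 0 (median 18.4%) and from 12.1 to 35.9% on Day 60 (median 23.2%). Most of this share was miR-486, which averaged 163290 RPMM on Day 0 and 187120 on Day 60 and did not pass (edgeR FDR 0.236). The paper used the ratio of miR-451 to miR-23a as an indicator of haemolysis. It reported that most samples lay below its cut-off, which it took as absence of haemolysis. By sequencing reads within libraries, this ratio ran from 0.935 to 13.4 on Day 0 and from 4.36 to 27.7 on Day 60. The medians were 1.83 and 8.56, and it was higher in 9 of 11 heifers. How ratios of sequencing reads relate to the paper's cut-off was not tested. By sequencing, miR-23a itself was among the miRNAs that fell on Day 60, so this ratio moves with both miRNAs. The paper's RT-qPCR did not show this fall. Neither cell lysis nor the release of RNA per cell was measured, and in plasma they cannot be told apart. Whether red cells were the source of these changes was not tested.

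Across heifers the changes of miR-15a, miR-16a and miR-16b correlated with those of the red cell miRNAs by both Pearson's r and Spearman's rho. Of these, miR-15a and miR-16b also passed by r without heifers 14 and 17. For miR-195 no correlation was detected. The changes on both sides share the TMM scaling of the same libraries. How many of the other tested miRNAs correlate in this way was not tested. The change of miR-16b within each heifer correlated with the mean change of the 4 red cell miRNAs. Pearson's r was 0.897 (permutation p = 0.00022, or 0.00055 adjusted over the 5 members) and Spearman's rho 0.936 (permutation p = 0.00011, or 0.00055 adjusted). It was higher in all 6 heifers in which the red cell mean was higher, and in 3 of the 5 in which that mean was lower, with log2 changes of 0.04 in heifer 11, 0.02 in heifer 24 and 0.62 in heifer 28. For miR-15a r was 0.927 (permutation p = 0.00013, adjusted p = 0.00055) and rho 0.818 (permutation p = 0.0033, adjusted p = 0.0055). Without heifers 14 and 17, the 2 farthest from the median red cell change, r was 0.825 for miR-16b and 0.784 for miR-15a.

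Pearson's r was smaller for miR-16a, miR-15b and miR-195. For miR-16a r was 0.743 (permutation p = 0.00392, adjusted p = 0.00653) and rho 0.909 (permutation p = 0.00028, adjusted p = 0.0007), with r at 0.651 without those 2 heifers (adjusted p = 0.0902). For miR-15b r was 0.725 (permutation p = 0.0123, adjusted p = 0.0154) and rho 0.618 (permutation p = 0.0476, adjusted p = 0.0595). Without the 2 heifers r was 0.124, so no relation of these changes was detected in the rest. For miR-195 both r and rho were -0.05 (permutation p = 0.886 and 0.903, not altered by adjustment), and r was 0.06 without the 2. The difference between these coefficients was not tested.

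**Figure D4:**
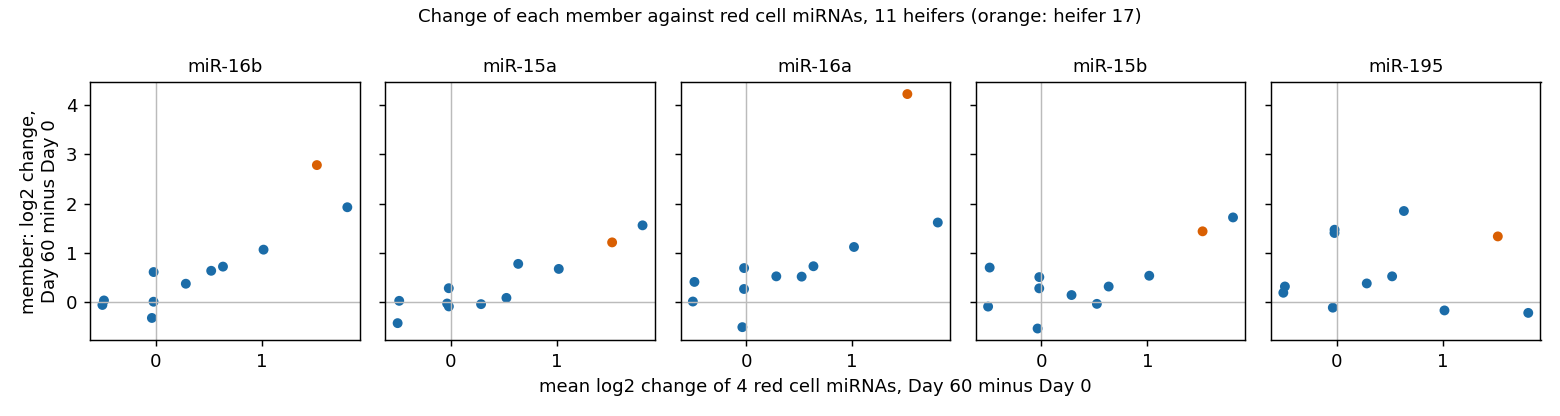
Within-heifer log2 change of each member (y) against the mean log2 change of 4 red cell miRNAs (x), Day 60 minus Day 0 on TMM-normalised reads, 11 heifers, heifer 17 in orange. miR-16b and miR-15a rise with the red cell miRNAs (r = 0.897 and 0.927), and miR-195 shows no such slope (r = -0.05).

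For the members other than miR-195 the relation was also present among heifers on a single day. For miR-15b on Day 60 it passed by r and not by rho. On Day 0 the level of miR-16b correlated with the mean level of the red cell miRNAs at r = 0.885 (permutation p = 0.00039, adjusted p = 0.00195) and rho = 0.773 (permutation p = 0.0074, adjusted p = 0.0123), and at r = 0.840 without heifers 11 and 12. On Day 60 r was 0.890 (permutation p = 0.00038, adjusted p = 0.0019) and rho 0.900 (permutation p = 0.00035, adjusted p = 0.00175). Leaving out heifers 14 and 31 gave an r of 0.845. For miR-15a r was 0.851 on Day 0 and 0.819 on Day 60, and for miR-16a 0.777 and 0.650. For miR-15b r was 0.811 on Day 0 (permutation test, adjusted p = 0.00317) and 0.632 on Day 60 (adjusted p = 0.0462). Its rho on Day 60 was 0.509 (permutation test, adjusted p = 0.142). Without the 2 farthest heifers of each day the r of miR-15b was 0.882 and 0.401. For miR-195 the Day 0 values were r = -0.24 (permutation p and adjusted p = 0.482) and rho = -0.30 (permutation p and adjusted p = 0.373). On Day 60 they were 0.373 and 0.355 (permutation p = 0.256 and 0.286, not altered by adjustment). Without the 2 farthest heifers of each day its r was -0.06 and 0.23.

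With the mean level of the red cell miRNAs as a covariate beside heifer, 4 of the log2 fold-changes were smaller than without it and none of the 5 passed. That of miR-16b went from 0.68 to 0.25 (edgeR FDR 0.267), that of miR-16a from 0.79 to 0.36 (edgeR FDR 0.348), that of miR-15b from 0.45 to 0.19 (edgeR FDR 0.478) and that of miR-15a from 0.37 to 0.05 (edgeR FDR 0.822). That of miR-195 was 0.66 with the covariate and 0.64 without it, though it did not pass with it (edgeR FDR 0.0916). In this fit 21 of the 195 tested miRNAs passed, against 69 without the covariate, so the loss of calls was not limited to the family. The covariate includes miR-451, which was itself higher on Day 60, so it can take up part of any change between the days.

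Of 6 tested leukocyte miRNAs, miR-142-5p, miR-150 and miR-155 were higher on Day 60 and 0 were lower (median 0.59 on the log2 scale). Their summed share ran from 3.10 to 4.53% of the reads on Day 0 and from 3.33 to 6.71% on Day 60. None of 3 tested platelet and 2 tested hepatocyte miRNAs passed, with medians of -0.18 and -0.12. Platelet shares ran from 0.623 to 2.08% on Day 0 and from 0.332 to 1.65% on Day 60. Hepatocyte shares ran from 3.40 to 8.18% and from 2.20 to 7.84%. The platelet share was mostly miR-126-5p, which averaged 8863 RPMM on Day 0 and 7459 on Day 60. The hepatocyte share was nearly all miR-192, at 55985 and 45170 RPMM, and miR-122 of that list was below the filter. The part of leukocytes, platelets and hepatocytes in the members' levels was not tested.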

How the data were processed

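Small RNA of 22 plasma samples was sequenced by the authors from TruSeq libraries. Reads were assigned with sRNAbench (Bowtie 0.12.9, bosTau4, miRBase, a mismatch allowed), and read counts per mature miRNA were deposited without normalisation. The deposited normalised reads (RPMM) scale bovine miRNAs and human homologues separately and served as an alternative. Samples were grouped by day and paired by heifer, whose number is in the labels. Own-animal libraries correlated at a mean of 0.141 across miRNAs, as deviations from day means, against -0.00628 with other animals. The own-animal values ran from -0.314 to 0.5825, and the own library was the best match in 3 of 11 heifers.

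Tests used edgeR 4.0.16 (R 4.3.3) on miRNAs whose level passed 25 RPMM in over 8 libraries of at least 1 day, with limma 3.58.1 and DESeq2 1.42.0 as alternatives. Ratios and correlations were computed with scipy 1.17.1 under Python 3.11.15. SE is the log2 fold-change over the root of its F. Ratios used a pseudocount of 1 on reads, correlations log2 TMM-normalised RPMM plus 1 and 100000 permutations. Intervals of mean ratio changes use the t distribution. Members and lists were chosen with earlier results of these data known. Named miRNAs are the members, seed relatives, other arms, cell lists, and the 3 most like each member. In a test on simulated data (195 miRNAs, Day 60 against Day 0) 41.5% of 1.5-fold, 80.4% of 2-fold and 99.6% of 4-fold changes were recovered.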

Additional observations from a re-analysis of the deposited data

How the results depend on the processing

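The direction of all 5 members held under every alternative run. The count of members passing was 2, and 0 with library totals, upper quartile scaling, deposited RPMM in limma, no filter, a filter of 100 RPMM or the erythroid covariate, 1 with DESeq2 size factors or scaling to miR-128, 2 with limma-voom, 3 with DESeq2 or the likelihood ratio test of edgeR, 4 with no replicate block for heifer, and 0 to 4 with each heifer left out. Over all miRNAs 69 passed, 21 with the erythroid covariate and 35 to 97 with each heifer left out. Splits into higher and lower were 34 and 35, against 11 and 57 (library totals), 21 and 58 (upper quartile), 17 and 59 with deposited RPMM, 35 and 20 with miR-128, 37 and 17 with no filter and 14 and 7 with the covariate.

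The log2 fold-change of miR-16b lost its call with DESeq2 size factors (0.74, FDR 0.0506), library totals (0.50), upper quartile scaling (0.53), DESeq2 (0.74), deposited RPMM (0.52), no filter (0.77), a filter of 100 RPMM (0.66), the covariate (0.25) and when summed with miR-16a (0.69). That of miR-195 did so with library totals (0.45), upper quartile scaling (0.47), miR-128 (0.72), deposited RPMM (0.45), no filter (0.72) and the covariate (0.66), and it was below the filter of 100 RPMM. miR-16a gained a call with DESeq2 (0.84), the likelihood ratio test (0.79) and no replicate block (1.23), and miR-15b with DESeq2 (0.51) and no replicate block (0.49). The causes were not tested. With each heifer left out the ranges were 0.24 to 0.45 for miR-15a, 0.32 to 0.55 for miR-15b, 0.54 to 0.92 for miR-16a, 0.49 to 0.79 for miR-16b and 0.51 to 0.72 for miR-195.

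No ratio of members passed under any setting. Those of miR-16a and miR-16b to miR-195 changed sign with a heifer left out, within -0.0306 to 0.37 and -0.14 to 0.21. For miR-195 and red cell miRNAs r turned positive with miR-451 alone (0.137), within Day 60 (0.373) and without heifers 14 and 17 (0.0584), and r without these heifers was 0.124 for miR-15b and 0.651 for miR-16a. Depth limits miR-195 most, at 48 reads in the shallowest library.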
